A study of Homo sapiens with 17 samples.

Results

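The genes described here are the CCN family (CCN1, CCN2, CCN3, CCN4 and CCN5) together with YAP1, WWTR1, TEAD1, AMOTL2 and ANKRD1, 10 genes of the 60664 in the expression table. They were selected as a named list, with the AZD5153 against DMSO differences of these same libraries already known. For that reason their differences between treatments are given as a description, with a standard error and no p-value. The difference between the 24-h and 48-h effects of the drug is built from those same values and is given in the same way. Changes between 24 and 48 h within a treatment were not the comparison the list was chosen on, and they are tested in a fit across all genes. They share libraries with the treatment differences, so these p-values are not fully independent of the choice. All 10 symbols were found, 9 were tested, and CCN5 was too low to test.

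RNA-Seq was performed in SF8628, an established cell line from a diffuse intrinsic pontine glioma that carries the H3.3 K27M mutation, a substitution in histone H3 that is shared by every library. The cells were treated with vehicle (DMSO) or with 1 μM AZD5153, an inhibitor of the bromodomains of BET proteins, which bind acetylated histones at active genes. The 4 groups were DMSO for 24 h, DMSO for 48 h, AZD5153 for 24 h and AZD5153 for 48 h, with 3 libraries in each. The labels do not say whether libraries of a group came from separate cultures, so p-values measure the spread between these libraries, which may be technical, in a single line.

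YAP1 and TAZ (encoded by WWTR1) are coactivators that bind no DNA themselves and act on their target genes through TEAD transcription factors. The kinases of the Hippo pathway phosphorylate YAP1 and TAZ, which holds them in the cytoplasm, and CCN1, CCN2, ANKRD1 and AMOTL2 are among the genes most often used as readouts of YAP/TAZ activity. CCN proteins are secreted matricellular proteins that bind integrins, proteoglycans and growth factors in the extracellular matrix.

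The reference promoters of 3 target genes and of YAP1 are shown because their mRNAs took different courses, and because each holds the letters of the TEAD motif. The motif searched on both strands was CATTCC, which reads GGAATG on the opposite strand. The AP-1 motif was searched in a loose form, TGANTCA, in which N is any base, and the CArG box of SRF was searched as well. Sequences are the 250 bases before the start site, 5′ to 3′ on the strand of the gene, from RefSeq on GRCh38.p14, and capitals mark motif matches. CCN2 lies on the minus strand (chr6:131951373-131951622), as do ANKRD1 (chr10:90921088-90921337) and AMOTL2 (chr3:134374448-134374697), and YAP1 lies on the plus strand (chr11:102110197-102110446).
CCN2: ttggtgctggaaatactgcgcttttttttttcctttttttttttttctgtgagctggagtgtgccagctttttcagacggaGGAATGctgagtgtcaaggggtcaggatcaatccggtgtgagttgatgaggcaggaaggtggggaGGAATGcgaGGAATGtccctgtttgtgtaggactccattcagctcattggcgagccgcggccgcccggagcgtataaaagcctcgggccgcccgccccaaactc
ANKRD1: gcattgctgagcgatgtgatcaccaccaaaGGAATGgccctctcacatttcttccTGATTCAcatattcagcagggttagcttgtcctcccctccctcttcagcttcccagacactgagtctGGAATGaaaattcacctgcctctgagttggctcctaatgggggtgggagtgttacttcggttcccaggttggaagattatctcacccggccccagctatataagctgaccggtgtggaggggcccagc
AMOTL2: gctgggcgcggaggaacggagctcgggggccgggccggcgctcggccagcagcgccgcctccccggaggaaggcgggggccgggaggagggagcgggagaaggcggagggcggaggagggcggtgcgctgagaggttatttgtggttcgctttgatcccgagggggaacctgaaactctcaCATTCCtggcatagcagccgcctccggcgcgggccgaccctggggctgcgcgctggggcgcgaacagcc
YAP1: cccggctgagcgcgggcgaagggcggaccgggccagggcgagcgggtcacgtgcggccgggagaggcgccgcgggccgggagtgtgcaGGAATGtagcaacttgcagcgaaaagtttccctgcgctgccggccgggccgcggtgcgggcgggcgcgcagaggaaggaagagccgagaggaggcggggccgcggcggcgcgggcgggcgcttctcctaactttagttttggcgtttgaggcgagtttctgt

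The CCN2 promoter held 3 matches to the TEAD letters, with first bases at -169, -104 and -95 from the start site. ANKRD1 held 2, at -220 and -128, and a match to the loose AP-1 form at -195, with T as its central base. YAP1 held 1 at -162, and AMOTL2 held 1 at -69 in the window shown and none in the window of its other start site. Neither of the WWTR1 windows held a match to any of the 3 motifs, and no CArG box was found in the 7 windows of these 5 genes. Among all 35116 reference windows of the same length (250 bases before to 50 after a start site), 14.0% held at least 1 TEAD match, 1.37% held 2 or more and 0.128% held 3 or more. An AP-1 match was held by 7.71% and a CArG box by 1.29%. These matches are letters in a reference sequence and say nothing of binding in these cells. No promoter was read for CCN1, TEAD1 and CCN5, and none is printed for CCN3 and CCN4.

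Reads assigned to genes ranged from 15759148 to 27335220 per library. DMSO 24-h replicate 1 stood apart from the others of its group, since the chi-square of its counts divided by the degrees of freedom was 17.0 and 25.4 against replicates 2 and 3. These 2 had 5.04 between them, and pairs within the other groups had 2.09 to 5.07. Without it, 43 of 45 member values kept their side of the threshold, the exceptions being TEAD1 at 24 h, which came to pass it, and TEAD1 with time in DMSO, which no longer did, and calls with time in AZD5153 over all genes went from 4627 to 6100. Of 13 neural and glioma markers, 8 passed the minimum level, and OLIG2, OLIG1 and NKX2-2 were at 0 in every library. The list did not move as one: BCAN went from a mean of 10.2 to 98.0 at 24 h and PTPRZ1 from 7.46 to 20.4, while CSPG4 went from 2086 to 441 and NES from 2050 to 758, each in the same direction at 48 h. SOX2 went from 203 to 134 and S100B from 57.1 to 60.4 at 24 h. At 48 h SOX2 went from 236 to 192 and S100B from 77.9 to 62.0. The receptor PDGFRA, another glioma marker, had group means of 1.54 to 4.42 normalized counts, and the astrocyte gene GFAP of 28.9 to 41.9. The summed level of this list ranged from 24187 to 32394 in DMSO and 19467 to 21237 in AZD5153 at 24 h, and from 20320 to 21083 and 16291 to 17865 at 48 h. Most of it was VIM, with means of 22869 in DMSO and 18551 in AZD5153 at 24 h, where the libraries overlapped. At 48 h VIM had 15327 in DMSO and 15450 in AZD5153. Of 20 markers of endothelial, immune, epithelial, muscle, neuronal and cardiac cells, 6 passed the minimum and 7 were at 0 in every library (CDH5, AIF1, KRT5, KRT14, MYOG, TNNT2 and MYH6). The sum of these 20 ranged from 1248 to 1410 in DMSO and 839 to 967 in AZD5153 at 24 h, and from 1527 to 1778 and 890 to 1013 at 48 h. Of the 6, the endothelial marker PECAM1 went from a mean of 289 to 43.3 at 24 h and from 528 to 30.5 at 48 h, and the immune marker CSF1R from 189 to 27.9 and from 197 to 34.9. VWF (58.4 to 17.2 at 24 h) and DES (32.7 to 4.14) were lower at both times as well, while CD14 went from 12.0 to 16.9 and the neuronal gene SYT1, the most abundant of the 6, from 749 to 801 at 24 h. At 48 h CD14 had 12.9 in DMSO and 12.8 in AZD5153, and SYT1 had 723 and 825. The part of these shifts in the differences described here was not tested.

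The members did not move as a unit. In bulk RNA, fewer expressing cells and less RNA per cell cannot be told apart. In AZD5153, CCN2 was far higher and CCN4 far lower than in DMSO at both times, YAP1 was lower at both times, CCN1 and WWTR1 differed at 24 h and were near their DMSO level at 48 h, and ANKRD1 differed at 48 h. Of the 9 tested members, 7 passed the threshold at 24 h (3 higher, 4 lower) and 7 at 48 h (3 higher, 4 lower). Over all 15599 tested genes, 68.5% passed at 24 h (33.9% higher, 34.6% lower) and 67.0% at 48 h (33.1% higher, 33.9% lower). Since the members were chosen on this comparison, their counts are no test and nothing is read from them. The threshold is an adjusted p under 0.05 in limma with Benjamini-Hochberg adjustment over all tested genes, and differences are on the scale of log2(normalized count + 1). Scaling libraries to equal totals in place of the authors' size factors lowered the median of all genes to -0.12 at 24 h and -0.17 at 48 h, and members' differences shifted with it. Higher genes then made up 37.4% of the 48-h calls, against 49.4% with the authors' factors.

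**Figure D1:**
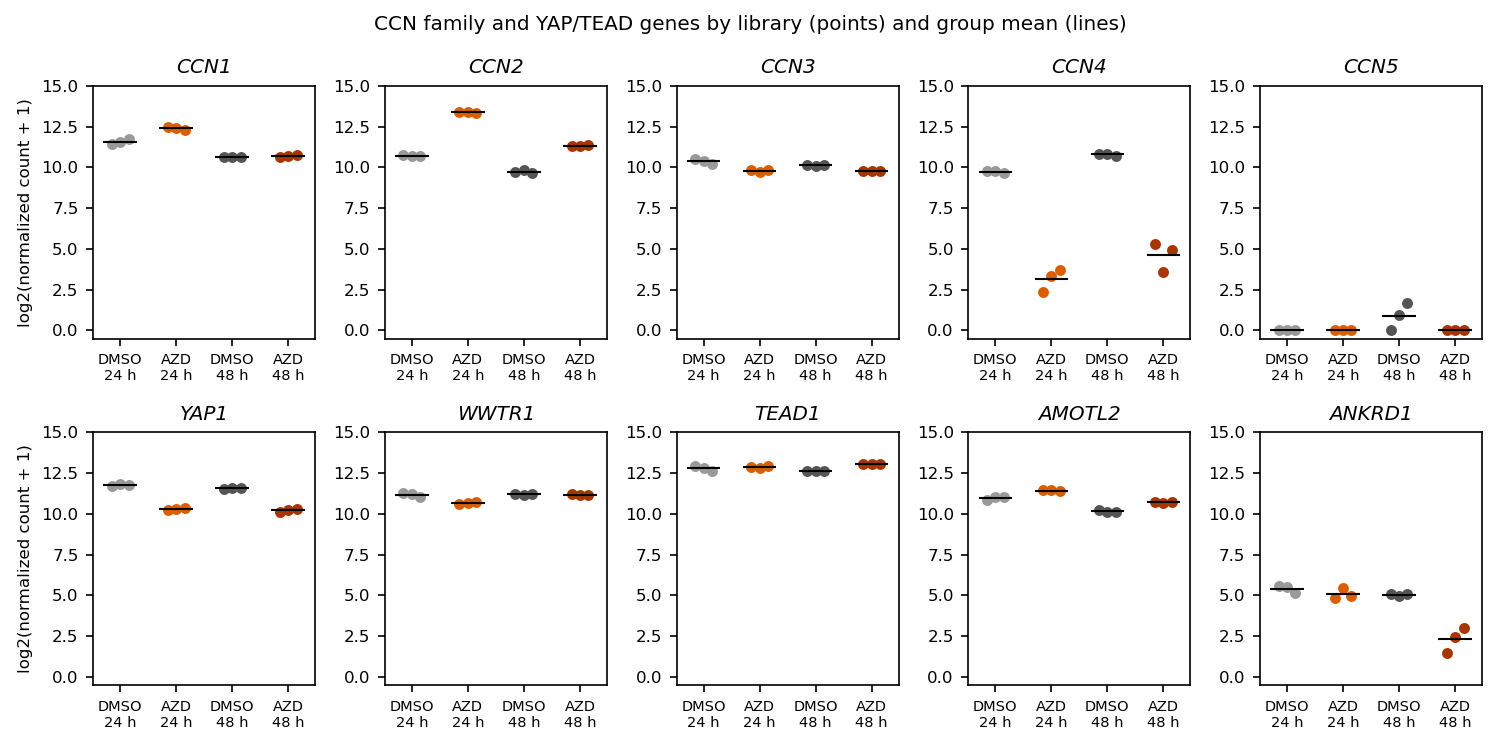
Level of each of the 10 genes in every library, as log2(normalized count + 1) on a common axis; points are libraries, lines are means of 3. CCN4 goes from a mean of 9.74 in DMSO to 3.14 in AZD5153 at 24 h and from 10.80 to 4.62 at 48 h, CCN2 is highest in AZD5153 at 24 h, and CCN5 sits at or near 0 throughout.

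Among the coactivators, YAP1 was lower in AZD5153 at both times. YAP1 had 3389, 3646 and 3512 normalized counts in DMSO at 24 h and 1232, 1247 and 1315 in AZD5153. At 48 h it had 2954, 3131 and 3129 in DMSO and 1129, 1189 and 1253 in AZD5153. The groups did not overlap at either time. The log2 difference was -1.47 ± 0.06 (SE, n = 3 per group) at 24 h and -1.37 ± 0.06 at 48 h, which is 2.78-fold and 2.58-fold lower. YAP1 fell by 0.19 between 24 and 48 h in DMSO (limma adjusted p = 0.0129), a call that was lost without DMSO 24-h replicate 2 (-0.17, adjusted p = 0.0599) or DMSO 48-h replicate 1 (-0.17, adjusted p = 0.0663). It was also lost with equal totals (-0.14, limma adjusted p = 0.0611) and under quantile normalization (-0.09, limma adjusted p = 0.239). The change within AZD5153 was -0.09 (limma adjusted p = 0.259) and the drug's effect at 48 h minus that at 24 h was 0.11 ± 0.08. YAP1 spans chr11:102110447-102233424 on the plus strand of GRCh38, the build of all positions given here. An antisense lncRNA overlaps its exons at a mean of 20.9 normalized counts against 2260 for YAP1. The counting's strand setting is not given in the sources used here, and reads of overlapping antisense genes cannot be told apart without it.

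WWTR1, which encodes TAZ and spans chr3:149517235-149736714 on the minus strand, took another course. It had 2520, 2354 and 2149 normalized counts in DMSO at 24 h and 1577, 1637 and 1715 in AZD5153, with no overlap. At 48 h it had 2428, 2262 and 2377 in DMSO and 2353, 2302 and 2287 in AZD5153, and the ranges overlapped. On the log2 scale AZD5153 minus DMSO was -0.51 ± 0.06 at 24 h and -0.03 ± 0.06 at 48 h. With libraries scaled to equal totals the 48-h value was -0.20 and passed the all-gene threshold, which it did not with the authors' factors. WWTR1 rose by 0.49 between 24 and 48 h in AZD5153 and its change in DMSO was 0.01 (limma adjusted p = 0.907). The effects of the drug at the 2 times differed by 0.48 ± 0.09, and this difference stayed between 0.39 and 0.54 under every alternative run.

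Per kilobase of exon, the ratio of YAP1 to WWTR1 mRNA was 2.0 ± 0.20 (SD, n = 3) with DMSO and 1.02 ± 0.014 with AZD5153 at 24 h. At 48 h it was 1.73 ± 0.11 in DMSO and 0.681 ± 0.045 in AZD5153. YAP1 was thus the more abundant coactivator mRNA in DMSO, and WWTR1 the more abundant in AZD5153 at 48 h, in each of the 3 libraries (ratios of 0.635 to 0.725). Their sum per kilobase was 837 and 397 at 24 h, and 769 and 466 at 48 h, in DMSO and AZD5153.

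TEAD1, a DNA-binding partner of both coactivators at chr11:12674421-12944737 (plus strand), had the highest level per kilobase of the 4 TEAD genes in every group. It had 7903, 7190 and 6447 normalized counts in DMSO at 24 h and 7467, 7384 and 8008 in AZD5153, which overlapped. At 48 h the DMSO libraries had 6405, 6298 and 6332, and the AZD5153 libraries 8436, 8614 and 8714, which did not. AZD5153 differed from DMSO by 0.09 ± 0.06 at 24 h and 0.44 ± 0.06 at 48 h. The 24-h value was -0.03 with equal totals, 0.01 under quantile normalization and 0.02 without DMSO 24-h replicate 3, and it was 0.16 and passed the threshold without DMSO 24-h replicate 1. The 48-h value was 0.27 with equal totals and 0.20 under quantile normalization. The 2 effects differed by 0.35 ± 0.08, which was 0.20 under quantile normalization. TEAD1 also passed the threshold for a fall of 0.17 with time in DMSO (limma adjusted p = 0.0342) and a rise of 0.17 in AZD5153 (limma adjusted p = 0.0401). These calls were fragile: of 21 alternatives each, 9 and 13 put the adjusted p above the threshold (up to 0.69 and 0.132), among them the omission of any 1 of the 3 DMSO 48-h libraries (adjusted p of 0.0714, 0.0912 and 0.079 in DMSO and 0.0557, 0.0546 and 0.0519 in AZD5153). Without DMSO 24-h replicates 1 or 2 the DMSO value was -0.10 or -0.17 (adjusted p = 0.0882 and 0.0789). Without DMSO 24-h replicate 2, AZD5153 24-h replicates 1 or 2, or any AZD5153 48-h library, the AZD5153 value was 0.15 to 0.19 (adjusted p of 0.0523 to 0.132).

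The other TEAD genes were lower where TEAD1 was not. TEAD2 had a log2 difference of -1.19 ± 0.11 at 24 h and -1.28 ± 0.11 at 48 h, TEAD3 of -0.39 ± 0.10 and -0.85 ± 0.10, and TEAD4 of -0.34 ± 0.09 and -0.67 ± 0.09. The list of TEAD and VGLL genes was written with these results known, so these values too are given without a p-value. As a share of summed TEAD1 to TEAD4 counts per kilobase, TEAD1 made up 50.9% ± 4.20 (SD, n = 3) with DMSO and 60.2% ± 2.17 with AZD5153 at 24 h, and 50.6% ± 0.57 and 71.1% ± 1.29 at 48 h. The sum of the 4 genes per kilobase was 1318 in DMSO and 1183 in AZD5153 at 24 h, and 1173 and 1129 at 48 h. VGLL3 and VGLL4 encode cofactors that compete with YAP1 and TAZ for TEAD proteins or modulate them. VGLL3 had a value of -0.56 ± 0.10 at 24 h and -0.09 ± 0.10 at 48 h, and VGLL4 had 0.04 ± 0.07 and then -0.45 ± 0.07. Of the 7 TEAD and VGLL genes listed besides TEAD1, VGLL1 and VGLL2 were below the minimum level, VGLL1 at 0 in every library.

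**Figure D2:**
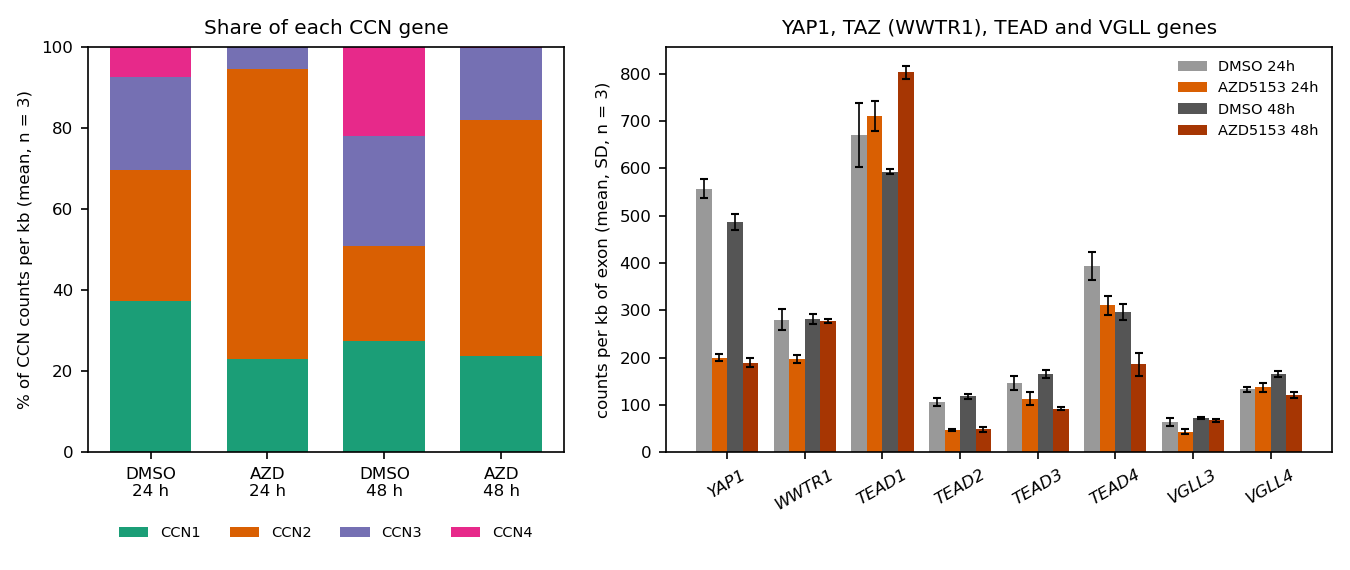
Left, share of CCN1 to CCN4 in the summed CCN counts per kilobase (mean of 3 libraries); right, normalized counts per kilobase of exon for YAP1, WWTR1, TEAD and VGLL genes (mean, SD, n = 3). In AZD5153, CCN2 holds 71.7% and 58.3% of the CCN total at 24 and 48 h, YAP1 drops to or below WWTR1, and TEAD1 is the TEAD gene whose mean is not lower (its 24-h difference was -0.03 with equal totals).

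CCN2, also known as connective tissue growth factor, showed the highest level of any member in AZD5153 per kilobase. In DMSO at 24 h it had 1734, 1664 and 1671 normalized counts, and in AZD5153 it had 10938, 10680 and 10554. At 48 h it had 846, 902 and 816 in DMSO and 2579, 2574 and 2646 in AZD5153. All AZD5153 libraries lay above all DMSO libraries of their time, and the lowest of the AZD5153 48-h libraries was still above the highest DMSO 24-h library. The log2 difference was 2.67 ± 0.05 at 24 h and 1.60 ± 0.05 at 48 h, which is 6.34-fold and 3.04-fold. CCN2 fell with time in DMSO by 0.98 (limma adjusted p = 5.48e-09) and in AZD5153 by 2.04 (limma adjusted p = 6.41e-13). The drug's effect was smaller at 48 h: the 48-h effect minus the 24-h effect was -1.06 ± 0.07 on the log2 scale. This difference lay between -1.11 and -1.02 under every alternative run. CCN2 spans chr6:131948176-131951372, and its exons overlap the antisense lncRNA LINC01013, which had a mean of 0.91 normalized counts.

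CCN1, an integrin ligand induced rapidly by serum and growth factors, was also higher at 24 h. It had 2821, 2964 and 3403 normalized counts in DMSO at 24 h and 5658, 5603 and 5034 in AZD5153, without overlap. By 48 h the values were 1628, 1584 and 1575 in DMSO and 1617, 1687 and 1709 in AZD5153, and the groups overlapped. The log2 difference was 0.83 ± 0.07 (1.78-fold) at 24 h and 0.07 ± 0.07 at 48 h, where equal totals gave -0.11 and quantile normalization -0.04. CCN1 fell with time in both DMSO (by 0.94, limma adjusted p = 1.27e-07) and AZD5153 (by 1.70, limma adjusted p = 1.05e-10). The effects at the 2 times differed by -0.76 ± 0.09. The gene lies at chr1:85580761-85584589 on the plus strand.

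The genes whose group means ran closest to those of CCN1 and CCN2 were found by the root mean square distance between their 3 log2 differences from DMSO at 24 h, over the 4 groups, leaving out genes whose mean was under 100 normalized counts. For CCN1 they were the cytokine IL11 (distance 0.169), APCDD1L-DT (0.208), the TGF-beta-inducible factor KLF10 (0.214), APCDD1L (0.281) and the amino acid transporter SLC7A5 (0.284). IL11 differed from DMSO at 24 h by -0.69 in DMSO at 48 h, 0.85 in AZD5153 at 24 h and -1.03 in AZD5153 at 48 h, where CCN1 had -0.94, 0.83 and -0.87. CCN2 had no neighbour as close. The nearest were the histone gene H2BC11 (0.574), the kinase MAP2K3 (0.606), the polyamine enzyme ODC1 (0.607), the immediate early factor EGR1 (0.629) and the EGF receptor ligand HBEGF (0.667). The 3 differences of CCN2 were -0.98, 2.67 and 0.62, and those of H2BC11 were -0.66, 2.21 and 1.44.

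CCN4, a CCN member first described as a target of WNT signalling, was nearly lost in AZD5153. It had 879, 895 and 792 normalized counts in DMSO at 24 h and 4.02, 9.21 and 12.2 in AZD5153, which were 3, 9 and 10 reads. At 48 h it had 1848, 1817 and 1696 in DMSO and 39.2, 10.9 and 29.9 in AZD5153, which were 43, 10 and 35 reads. The highest AZD5153 library was thus far below the lowest DMSO library. On the log2 scale AZD5153 minus DMSO was -6.60 ± 0.37 at 24 h and -6.19 ± 0.37 at 48 h with a pseudocount of 1, and -5.57 and -5.70 with a pseudocount of 10. Without AZD5153 48-h replicate 2 the 48-h value was -5.66.

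CCN4 rose with time in DMSO by 1.06 ± 0.37 (limma adjusted p = 0.0336), and its DMSO libraries at 48 h all lay above those at 24 h. The SE is shared with the AZD5153 groups, where few reads were counted. The call was lost without DMSO 24-h replicates 2 or 3 (1.10 and 1.01, adjusted p = 0.0629 and 0.061) and without any 1 of the DMSO 48-h libraries (1.04 to 1.10, adjusted p of 0.0733 to 0.0897). In AZD5153 it rose by 1.48 (limma adjusted p = 0.00631) on the few reads given above, a value that was 0.93 with a pseudocount of 10, and its libraries overlapped between times. The effect of the drug at 48 h minus that at 24 h was 0.42 ± 0.52, and ranged from -0.13 with a pseudocount of 10 to 0.94 without AZD5153 48-h replicate 2. Of the 4 tested CCN genes, CCN4 rose with time in DMSO where CCN1, CCN2 and CCN3 fell.

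CCN3, which often opposes CCN2 in fibrosis, was lower in AZD5153 by a smaller margin. It had 1457, 1356 and 1191 normalized counts in DMSO at 24 h and 922, 847 and 925 in AZD5153. The 48-h values were 1139, 1099 and 1127 in DMSO and 887, 880 and 892 in AZD5153, and the groups did not overlap at either time. AZD5153 differed from DMSO by -0.57 ± 0.07 at 24 h and -0.34 ± 0.07 at 48 h, the latter being -0.51 with equal totals. CCN3 fell by 0.25 with time in DMSO (limma adjusted p = 0.0142), a call lost without DMSO 48-h replicate 2 (-0.23, adjusted p = 0.0532). The call was also lost with equal totals (-0.19, limma adjusted p = 0.0513) and under quantile normalization (-0.18, limma adjusted p = 0.063). In AZD5153 the change of CCN3 with time was -0.02 (limma adjusted p = 0.883). The drug's effects at the 2 times differed by 0.23 ± 0.10.

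CCN5, the CCN protein that lacks the C-terminal domain of the others (chr20:44714844-44728509, plus strand), had 3 reads in all. They came from DMSO 48-h replicates 2 and 3 (1 and 2 reads). The other 10 libraries held 0 reads, which allows up to 0.11 to 0.19 counts per 1000000 reads of a library, for counting error only.

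Taken as shares of the summed CCN counts per kilobase, the make-up of the family differed between treatments. CCN2 held 32.5% ± 0.70 (SD, n = 3) with DMSO and 71.7% ± 0.67 with AZD5153 at 24 h, and 23.3% ± 0.92 and 58.3% ± 0.19 at 48 h. CCN4 held 7.41% ± 0.54 in DMSO and 0.0258% ± 0.013 in AZD5153 at 24 h, and 21.9% ± 0.54 and 0.269% ± 0.15 at 48 h. The share of CCN1 was 37.2% and 22.9% at 24 h and 27.5% and 23.7% at 48 h, and that of CCN3 was 22.9% and 5.37%, then 27.3% and 17.8%. In DMSO at 48 h CCN1 to CCN4 thus held between 21.9% and 27.5% each, the most even make-up of the 4 groups, with 0.0132% for CCN5. The family's sum per kilobase was 2226 ± 19.7 in DMSO and 6401 ± 165 in AZD5153 at 24 h, and 1571 ± 32.4 and 1908 ± 28.8 at 48 h.

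**Figure D3:**
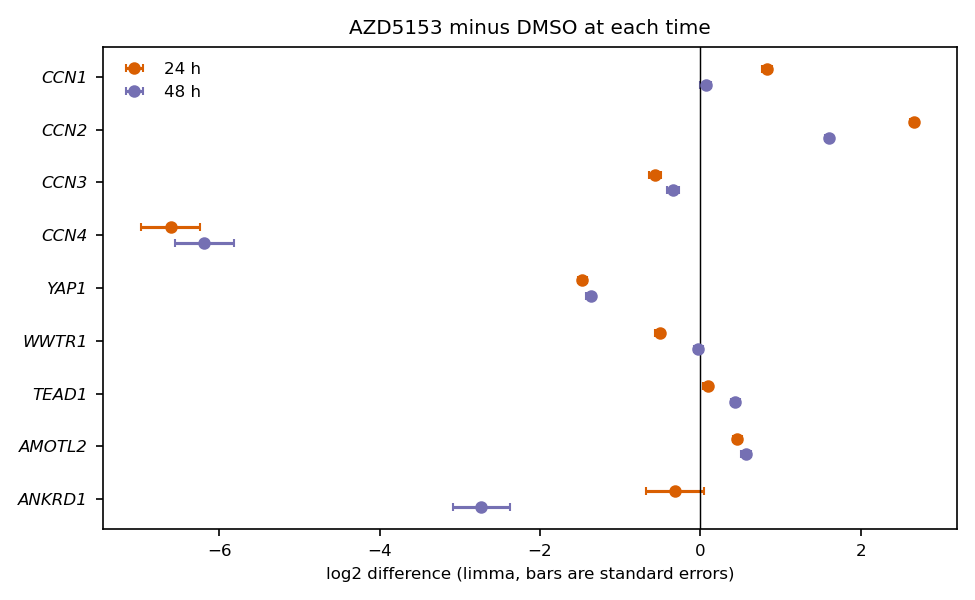
Log2 difference between AZD5153 and DMSO at 24 and 48 h for the 9 tested members; points are limma estimates and bars are SE. CCN2 lies at 2.67 and 1.60, CCN4 near -6 at both times, and ANKRD1 moves from -0.32 to -2.73.

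The remaining readouts of YAP/TAZ activity, AMOTL2 and ANKRD1, differed from each other. AMOTL2, at chr3:134355347-134375479 on the minus strand, encodes an angiomotin that binds YAP1 and promotes its phosphorylation. It had 1860, 2078 and 2122 normalized counts in DMSO at 24 h and 2781, 2855 and 2694 in AZD5153. At 48 h it had 1186, 1125 and 1114 in DMSO and 1734, 1641 and 1703 in AZD5153, again all above DMSO. The log2 difference was 0.46 ± 0.06 and 0.57 ± 0.06. AMOTL2 fell with time by 0.82 in DMSO (limma adjusted p = 1.3e-07) and by 0.71 in AZD5153 (limma adjusted p = 3.58e-07). The difference between these changes was 0.11 ± 0.08.

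ANKRD1, a nuclear ankyrin-repeat protein best known in heart and skeletal muscle (chr10:90912096-90921087, minus strand), was low throughout. It had 46.2, 45.6 and 33.9 normalized counts in DMSO at 24 h and 28.2, 42.0 and 30.6 in AZD5153, and the ranges overlapped. By 48 h it had 32.4, 30.1 and 32.4 in DMSO and 1.82, 4.35 and 6.85 in AZD5153, which were 2, 4 and 8 reads and lay below every other library. The log2 difference was -0.32 ± 0.36 at 24 h and -2.73 ± 0.36 at 48 h, the latter being -1.55 with a pseudocount of 10. The 24-h value ranged from -0.485 to -0.154 under the alternatives. ANKRD1 fell by 2.80 between times in AZD5153, or by 1.61 with a pseudocount of 10, against -0.38 in DMSO (limma adjusted p = 0.438). The effects at the 2 times differed by -2.41 ± 0.51, which was -1.30 at its smallest, with a pseudocount of 10. CCN2 and ANKRD1 had differences from DMSO of opposite sign at 48 h, that of ANKRD1 on the few reads given above.

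**Figure D4:**
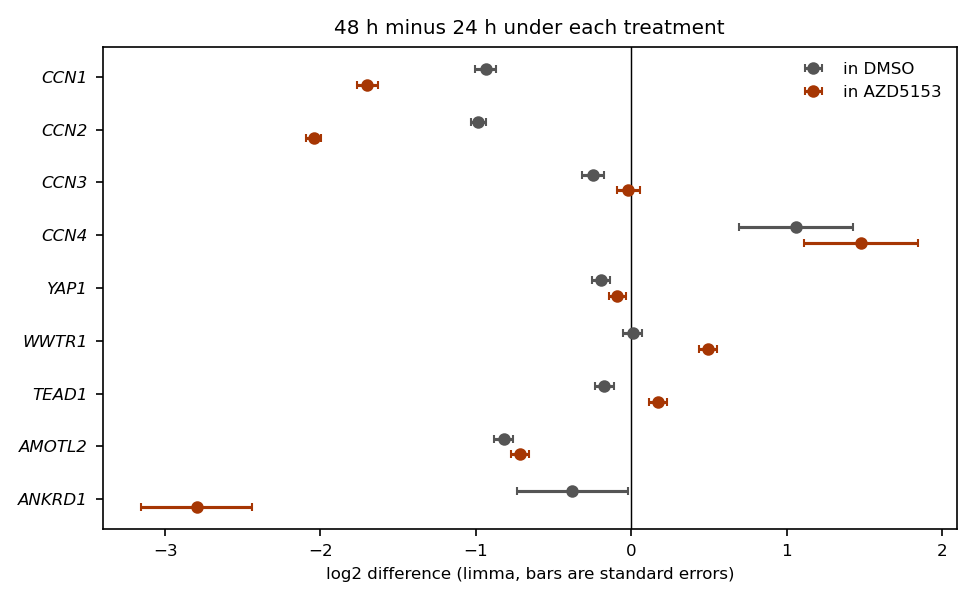
Log2 change from 24 to 48 h in DMSO and in AZD5153 for the 9 tested members; points are limma estimates and bars are SE. CCN1, CCN2 and AMOTL2 fall under both treatments, ANKRD1 falls in AZD5153, and WWTR1 rises in AZD5153.

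Time in culture was followed over the members as a group. Between 24 and 48 h in DMSO, 7 of 9 members passed the threshold (1 higher, 6 lower), against 35.7% of all tested genes. That count fell to 4 with equal totals, under quantile normalization, or without DMSO 24-h replicate 2, DMSO 48-h replicate 1 or DMSO 48-h replicate 2, and to 5 without DMSO 48-h replicate 3. The falls of CCN1, CCN2 and AMOTL2 passed under every alternative run. In AZD5153, 7 of 9 passed (3 higher, 4 lower; 6 or 7 under the alternatives), against 29.7% of all tested genes. The drug's effect differed between the times past the same threshold for 5 of 9 (WWTR1 and TEAD1 higher, CCN1, CCN2 and ANKRD1 lower), against 24.5% of all tested genes, and nothing is read from that count. Because the list was chosen with these data known, these shares describe the list only.

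The genes around the members were examined in lists, also written with results of these data known. The lists share some genes, so their counts are not separate. LATS2 and PTPN14 are in the Hippo list and in that of other YAP/TAZ target genes, and TGFB2 is in the latter and in the TGF-beta list. Counts in each list stand beside the shares of all tested genes, 33.9% higher and 34.6% lower at 24 h and 33.1% higher and 33.9% lower at 48 h, and beside all-gene medians of 0.00. Genes named below are the 2 highest and 2 lowest of their list at 48 h, so their values are descriptions without a p-value. Of 23 genes for Hippo kinases and their regulators, 8 were higher and 10 lower at 24 h (median log2 difference -0.15) and 8 were higher and 9 lower at 48 h (median -0.03). With equal totals the medians were -0.28 and -0.21, under quantile normalization the 48-h median was -0.18, and with a minimum mean of 100 the 24-h median was -0.06. The scaffold genes FRMD6 (-2.19 ± 0.07 and -1.87 ± 0.07 at 24 and 48 h) and WWC1, which encodes KIBRA (-2.20 ± 0.11 and -1.76 ± 0.11), were lowest. The kinase genes TAOK2 (1.16 ± 0.10 and 0.87 ± 0.10) and STK3, which encodes MST2 (0.95 ± 0.13 and 1.07 ± 0.13), were highest.

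Of 18 other YAP/TAZ target genes, 16 were tested, with 5 higher and 10 lower at 24 h (median -0.39) and 3 higher and 8 lower at 48 h (median -0.17). With equal totals 2 were higher at 24 h and 2 at 48 h, and the 48-h median was -0.34, as it was -0.33 under quantile normalization. The lowest at 48 h were RBMS3 (-2.01 ± 0.22 at 24 h and -1.91 ± 0.22 at 48 h) and FJX1 (-1.44 ± 0.17 and -1.87 ± 0.17). The highest were IGFBP3, a binding protein of insulin-like growth factors (2.66 ± 0.29 and 2.45 ± 0.29), and the stress-response gene GADD45A (1.55 ± 0.10 and 0.83 ± 0.10). IGFBP3 was low, with means of 13.2 normalized counts in DMSO and 90.3 in AZD5153 at 24 h, and 10.6 and 61.4 at 48 h.

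CCN2 is also a target of TGF-beta and of SRF with its MRTF cofactors, and those lists were examined beside it. Of 16 TGF-beta pathway genes, 2 were higher and 8 lower at 24 h (median -0.33), and 1 was higher and 12 lower at 48 h (median -0.68). The 48-h median lay between -0.85 and -0.56 under the alternatives. The latent TGF-beta binding protein genes LTBP2 (-2.30 ± 0.14 and -3.41 ± 0.14) and LTBP1 (-2.90 ± 0.08 and -2.84 ± 0.08) were lowest, and SKI, a repressor of SMAD signalling, was highest (1.19 ± 0.07 and 1.23 ± 0.07). SMAD4, the common mediator, had -0.12 ± 0.06 and 0.06 ± 0.06. Of 15 SRF and MRTF genes, 14 were tested, with 4 higher and 6 lower at 24 h (median -0.02) and 3 higher and 7 lower at 48 h (median -0.20). With equal totals these medians were -0.15 and -0.38, and under quantile normalization -0.13 and -0.30. FLNA, which encodes the actin crosslinker filamin A (1.28 ± 0.06 and 0.96 ± 0.06), and the cofactor gene MRTFA (0.91 ± 0.13 and 0.60 ± 0.13) were highest. The calponin gene CNN2 (-2.12 ± 0.17 and -1.91 ± 0.17) and the myosin light chain gene MYL9 (0.00 ± 0.10 and -0.97 ± 0.10) were lowest.

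Of 10 genes for receptors of CCN proteins, 4 were higher and 3 lower at 24 h (median 0.09, which was -0.04 with equal totals and -0.01 with a minimum mean of 100). At 48 h, 6 were higher and 3 lower (median 0.41, which was 0.24 with equal totals, 0.28 under quantile normalization and 0.31 with a minimum mean of 100). The syndecan gene SDC4, a heparan sulfate coreceptor (1.59 ± 0.06 and 2.09 ± 0.06), and the integrin subunit gene ITGB3 (0.33 ± 0.38 and 1.48 ± 0.38) were highest. ITGB3 was low, with means of 17.5 normalized counts in DMSO and 21.8 in AZD5153 at 24 h, and 13.4 and 37.3 at 48 h. Its relative ITGB5 (-0.53 ± 0.07 and -1.50 ± 0.07) and LRP1, an endocytic receptor that binds CCN2 (-0.60 ± 0.05 and -0.77 ± 0.05), were lowest.

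**Figure D5:**
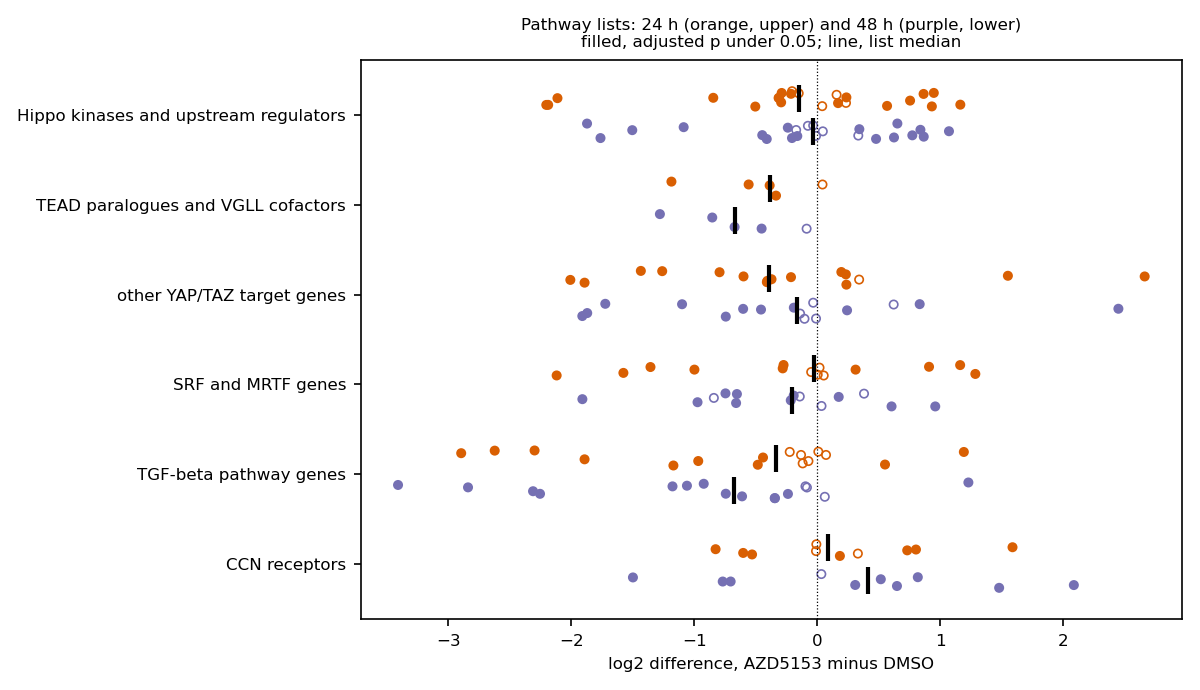
Log2 difference between AZD5153 and DMSO for each tested gene of 6 pathway lists, at 24 h (upper row of a list) and 48 h (lower row); filled points passed the threshold, and vertical lines are medians. The TEAD and VGLL list and the TGF-beta list lie mostly below 0, and the CCN receptors at 48 h mostly above it.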

How the data were processed

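Per the labels and the study's methods, 150-base paired reads of 12 SF8628 libraries were aligned to hg38 with STAR, counted per gene with HTSeq-count and normalized with DESeq2 (versions and annotation not given in the sources used here). The deposited values are normalized counts, a signal unit: reads divided by size factors from the authors. All values (100%) were whole reads within 0.1 after undoing that scaling. The authors' own comparison columns (mean, fold change, SE, statistic, p-values) were not used. The CUT&RUN samples of this series were not analysed here. Neither were the JQ1 libraries, which the study took from an earlier series.

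Group means were fitted with limma 3.58.1 (R 4.3.3) on log2(normalized count + 1) for 15599 genes with a mean of at least 10, without covariates, all 4 groups sharing 1 estimate of the spread (8 residual degrees of freedom), with Benjamini-Hochberg adjustment and a threshold of 0.05. Alternatives were pseudocounts of 0.5 and 10, no minimum or a minimum mean of 100, equal totals, quantile normalization, a replicate block, edgeR 4.0.16 and DESeq2 1.42.0 on recovered reads, and leaving out each library. On those reads edgeR called 10692 genes at 24 h and 10577 at 48 h. Levels per kilobase used GENCODE 44 exon lengths, and 60463 of 60664 IDs had a symbol there. Promoters of 5 members not on chromosome 8 were read from RefSeq.

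The members and the pathway lists were chosen with earlier results of these data known. Named genes were the members, the 2 highest and 2 lowest tested genes of each pathway list at 48 h (all of the TEAD and VGLL list), the 5 genes closest to CCN1 and to CCN2, and, where a marker list's summed level is given, its tested markers and those at 0; PDGFRA was added after its values were seen. Replicates differed by more than counting error in every group.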

Additional observations from a re-analysis of the deposited data

Results flagged for a closer look

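For 5 members the effect of AZD5153 at 48 h minus that at 24 h passed the threshold of 0.05 in the interaction term of limma, with Benjamini-Hochberg adjustment over all tested genes. The members were chosen with both treatment differences known, so these values are descriptions. The difference was -0.76 for CCN1 and -1.06 for CCN2, both of which were higher in AZD5153 at 24 h and nearer to DMSO at 48 h. For WWTR1 it was 0.48, since its value went from below DMSO to the DMSO level. For TEAD1 it was 0.35. For ANKRD1 it was -2.41, on 14 reads in all in the AZD5153 48-h libraries.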

How the results depend on the processing

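Counts of called genes in all 5 comparisons stayed within 1.5 times under every alternative run. Of 940 member values recomputed, 902 kept their side of the threshold, 35 lost a call and 3 gained one: TEAD1 at 24 h (0.16 without DMSO 24-h replicate 1), WWTR1 at 48 h (-0.20 with equal totals) and CCN3 for the effect difference between times (0.31 without DMSO 24-h replicate 3). By size, 27 treatment differences moved by over 1 SD, with a change of sign for CCN1 at 48 h (-0.11 with equal totals, -0.04 under quantile normalization) and TEAD1 at 24 h (-0.03 with equal totals), and 6 time values changed sign. The cause was not tested. CCN5 was below the minimum mean and has none.

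The time values that changed sign had passed no threshold: CCN4, effect difference between times, -0.13 with a pseudocount of 10; YAP1, the same difference, -0.012 under quantile normalization; WWTR1 with time in DMSO, -0.049 to 0.066 with 1 library left out; and CCN3 with time in AZD5153, -0.059 to 0.004 likewise. The 5 members past the threshold for the effect difference passed it under each alternative except TEAD1 under quantile normalization, with ANKRD1 not fitted at a minimum mean of 100. Since the members were chosen on the values behind that difference, these passes describe the fit only and are no test. Equal totals or quantile normalization ended the calls with time in DMSO for CCN3 (adjusted p = 0.0513 and 0.063) and YAP1 (0.0611 and 0.239). Equal totals also moved the share of higher genes among calls from 45.8% to 56.2% with time in DMSO and from 58.9% to 48.2% for the interaction.

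Same-numbered libraries did not deviate together (r from -0.151 to 0.036 over 18 pairs, and 4 of 12 libraries correlated best with their own number). The labels do not say what a number stands for, and low correlations cannot show that same-numbered libraries were prepared apart. With the replicate block the interaction had 3438 calls against 3829, that of CCN2 was -1.06, and among the members 2 calls were lost, those of TEAD1 with time in DMSO (-0.17, adjusted p = 0.0519) and in AZD5153 (0.17, adjusted p = 0.0606).

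Depth limits CCN4 and ANKRD1 in AZD5153, where single libraries hold 2 to 43 reads, and CCN5 throughout. With 3 libraries per group in 1 line, the spread between cultures cannot be told apart from technical spread.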
